A study of Homo sapiens with 120 samples.

Results

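CHCHD2, PHKG1, CEBPZOS and CEBPZ were followed across all libraries of the series. They are 4 of 62703 genes with values and lie at 2 loci. They were chosen by their measured levels: each locus holds a gene that is nearly silent in cells labelled ΔATG against WT. Therefore the ΔATG levels of the 4 genes are a description, given without a test. Tests are given for KO against WT, for days within WT and for the overexpression arm. The KO comparison shares its WT libraries with the choice of genes.

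All 120 libraries are polyadenylated RNA of H1, an established line of human embryonic stem cells. In the differentiation arm, ΔATG, KO and WT cells were collected before treatment (day 0) and daily on days 1 to 5 of treatment with BMP4 (towards mesoderm), SMADi (a neural induction kit, towards neuroectoderm) or a definitive endoderm kit (Endo). Each of the 48 groups has 2 libraries, a and b. In the overexpression arm, cells labelled lncPRESS1, lncPRESS1DATG and lncSIRP and vector cells were collected at stages called early, middle and late, with 2 libraries in each of 12 groups. LNCPRESS1 makes a long non-coding RNA found in pluripotent cells, and the name ΔATG points to a lost start codon. The labels do not name the gene edited in ΔATG and KO, and the design text calls the overexpression cells gain-of-function variants of lncPRESS1. The sources used here do not give what lncSIRP is, the days of the stages or the number of clones per line, so an edit and the clone that carries it cannot be told apart. Nothing states that libraries a and b came from separate cultures, so p-values measure the spread between these libraries, which may be technical.

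CHCHD2 encodes a small twin CX9C protein of the mitochondrial intermembrane space, a partner of CHCHD10, which can also enter the nucleus and act on the cytochrome oxidase gene COX4I2. In human pluripotent cells it has been linked to neural induction through SMAD4, and its level is known to differ between pluripotent lines. PHKG1 encodes a catalytic subunit of phosphorylase kinase, which switches on glycogen breakdown in muscle. CEBPZ belongs to the family of yeast Noc1, a ribosome assembly factor, and CEBPZOS is a small mitochondrial protein named for its place opposite CEBPZ.

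In GRCh38 with the GENCODE 29 annotation, CHCHD2 (ENSG00000106153) lies on the minus strand at chr7:56101569-56106576. PHKG1 (ENSG00000164776) lies on the same strand at chr7:56080283-56092996, 8573 bases away. CEBPZOS (ENSG00000218739) lies on the plus strand at chr2:37196488-37216193 and CEBPZ (ENSG00000115816) on the minus strand at chr2:37201612-37231713. Both are protein-coding, and their bodies share 14582 bases, where reads can be told apart only by strand. The library kit keeps strand, but the sources used here do not say whether the counting used it. The 250 bases before the RefSeq starts of CHCHD2, CEBPZOS and CEBPZ (GRCh38.p14) are shown because CHCHD2 and CEBPZOS were nearly silent in ΔATG cells and CEBPZ, at the same locus as CEBPZOS, was not. They run 5′ to 3′ in the direction of the gene, with each CG pair in capitals.
CHCHD2, chr7:56106477-56106726, minus strand: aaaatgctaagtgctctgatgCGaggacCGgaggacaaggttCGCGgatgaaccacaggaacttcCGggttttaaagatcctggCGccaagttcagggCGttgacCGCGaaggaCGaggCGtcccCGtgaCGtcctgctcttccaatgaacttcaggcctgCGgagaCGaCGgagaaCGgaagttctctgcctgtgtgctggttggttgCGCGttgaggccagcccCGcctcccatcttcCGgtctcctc
CEBPZOS, chr2:37196246-37196495, plus strand: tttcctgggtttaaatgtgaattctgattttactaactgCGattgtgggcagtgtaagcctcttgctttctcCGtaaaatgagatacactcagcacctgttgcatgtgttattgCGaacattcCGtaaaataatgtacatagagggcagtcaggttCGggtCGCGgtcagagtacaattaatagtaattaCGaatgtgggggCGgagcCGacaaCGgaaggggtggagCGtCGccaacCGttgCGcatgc
CEBPZ, chr2:37231597-37231846, minus strand: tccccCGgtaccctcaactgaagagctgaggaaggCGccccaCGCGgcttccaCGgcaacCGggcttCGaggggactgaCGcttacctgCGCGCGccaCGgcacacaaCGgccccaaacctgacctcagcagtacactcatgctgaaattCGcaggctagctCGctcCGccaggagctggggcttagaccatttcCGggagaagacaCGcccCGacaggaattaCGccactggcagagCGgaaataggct
The CHCHD2 window holds 21 CG pairs, the CEBPZOS window 15, the CEBPZ window 21 and the PHKG1 window 7. Over 35116 RefSeq windows of this length the median is 11 and the quartiles are 3 and 23, so all 4 lie between the quartiles. Motifs were searched on both strands, chosen after the sequences were seen. The ETS motif CCGGAAGT and the CRE core TGACGT occur in the CHCHD2 window, and in 3.42% and 7.10% of all windows. The GC box GGGCGG occurs in the CEBPZOS and PHKG1 windows and in 42.6% of all windows. The palindromic NRF1 motif occurs whole in none of the 4 windows and in 1.03% of all windows. The CEBPZOS window ends in letters that match the start of this motif. The search stopped at the window edge, so it cannot tell whether the motif is completed there. Partial matches were not counted. Of the motifs searched, CHCHD2 and CEBPZOS shared none that lay whole within these windows.

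Estimated counts summed to between 38298440 and 71220396 per library in the differentiation arm and between 40113672 and 65466258 in the overexpression arm. LNCPRESS1 measured 53.1 and 35.2 CPM (counts scaled to a common library total) in ΔATG libraries at day 0, 13.2 and 5.60 CPM in KO libraries, and 21.4 and 40.6 CPM in WT libraries. At day 0 it was lower in KO, though not lost (log2 fold change -1.72 ± 0.29 SE, adjusted p = 0.000158 by edgeR's quasi-likelihood test with Benjamini-Hochberg adjustment, as for every adjusted p below). Over days 1 to 5 LNCPRESS1 was lower in KO in BMP4 (-1.27 ± 0.13, adjusted p = 2.94e-11) and SMADi (-3.47 ± 0.19, adjusted p = 8.94e-22), and not called in Endo (adjusted p = 0.67). ΔATG was also lower in SMADi (-3.61 ± 0.24, adjusted p = 7.17e-19), with 0 CPM in both libraries on day 5. In BMP4 ΔATG was not called (adjusted p = 0.811). In Endo, where no library passed 1.88 CPM, LNCPRESS1 was higher in ΔATG (1.05 ± 0.37, adjusted p = 0.0213). Summed over 6 stem cell markers, day 0 libraries held 4710 to 5080 CPM in ΔATG, 4660 to 5180 CPM in KO and 4740 to 5210 CPM in WT. The 7 fibroblast markers summed to 623 to 753 CPM in ΔATG, 636 to 740 CPM in KO and 696 to 770 CPM in WT. COL3A1, a member of that list, had at most 0.144 CPM in these libraries, so other members made up the sums. In bulk libraries, fewer cells of a type and less RNA per cell cannot be told apart.

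CHCHD2 was all but absent from ΔATG cells and reduced in KO cells. The 32 ΔATG libraries together held 10 CHCHD2 counts among 1750772770 counts, the 32 KO libraries 61591 counts and the 32 WT libraries 131827 counts. In 25 of the 32 ΔATG libraries no CHCHD2 count was found, and no ΔATG library held more than 2. Pooled, CHCHD2 stood at 0.00571 CPM in ΔATG (exact Poisson 95% interval 0.00274 to 0.0105) and 75.9 CPM in WT. That interval covers counting error only. The pooled ratio of WT to ΔATG was 13300, a description of the levels by which the gene was chosen.

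At day 0 both ΔATG libraries had 0 CHCHD2 counts, the KO libraries had 43.0 and 48.1 CPM, and the WT libraries had 65.0 and 68.1 CPM. Against a floor of 3 counts per library, on average 0.0499 CPM in these ΔATG libraries, CHCHD2 was at least 1330-fold lower in ΔATG than in WT. In BMP4 the lowest, median and highest of 10 libraries had 0, 0 and 0.0336 CPM in ΔATG, 30.4, 38.0 and 43.9 CPM in KO, and 40.9, 55.4 and 67.6 CPM in WT. ΔATG lay far below both other lines, and KO lay below WT, at each of the 16 time points without overlap.
In SMADi the same 3 values were 0, 0 and 0.0389 CPM in ΔATG, 16.8, 29.7 and 49.6 CPM in KO, and 59.6, 93.3 and 130 CPM in WT. In Endo they were 0, 0 and 0.0323 CPM in ΔATG, 25.7, 32.9 and 43.4 CPM in KO, and 59.4, 76.3 and 113 CPM in WT. The few ΔATG counts were spread over all 3 courses.

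**Figure D1:**
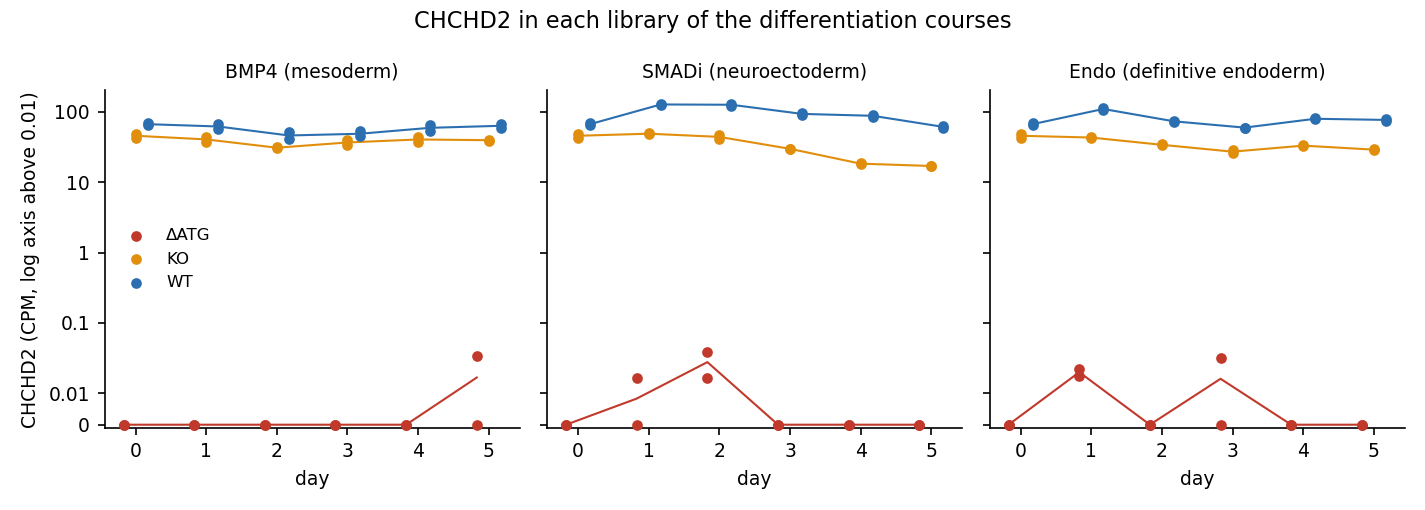
CHCHD2 in CPM (log axis above 0.01) against day for the 3 courses, with 1 point per library and lines through the means of 2 libraries; day 0 is the same in each panel. ΔATG libraries lie between 0 and 0.0389 CPM, KO libraries between 16.8 and 49.6 CPM and WT libraries between 40.9 and 130 CPM.

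The reduction of CHCHD2 in KO was mildest at day 0 and in BMP4 and deepest in SMADi. KO held 68.4% of the WT level at day 0, 62.4% to 75.2% over the days of BMP4, 20.9% to 38.4% in SMADi and 37.8% to 46.4% in Endo. At day 0 the log2 fold change was -0.55 ± 0.11 SE (adjusted p = 0.00167). This call was lost when only the 4 day 0 libraries compared were fitted (-0.52, adjusted p = 0.98). CHCHD2 was the 1 member called there of 4, where 3.56% of all tested genes were called. With the letters a and b as a block, 2322 genes were called in KO at day 0 in place of 920, and 1850 in ΔATG in place of 1018. Averaged over days 1 to 5, the log2 fold change was -0.57 ± 0.05 in BMP4 (adjusted p = 9.57e-13), -1.73 ± 0.05 in SMADi (adjusted p = 5.72e-30) and -1.25 ± 0.05 in Endo (adjusted p = 7.24e-24). All 4 members were called in BMP4, where 27.7% of tested genes were; 3 were called in SMADi (46.5% of genes) and 2 in Endo (15.6% of genes).
The size of the KO effect on CHCHD2 differed between the 3 courses in a joint test (adjusted p = 9.7e-18), which 48.1% of tested genes passed. It also differed between days of SMADi (adjusted p = 9.49e-05, passed by 32.3% of genes), with -1.38 ± 0.11 on day 1 and -2.26 ± 0.11 on day 4. A difference between days was not detected in BMP4 (adjusted p = 0.807, passed by 8.42% of genes) or Endo (adjusted p = 0.783, passed by 2.83%).

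In WT cells the day 5 level of CHCHD2 was not distinguishable from its day 0 level. WT libraries had 58.5 and 67.6 CPM on day 5 of BMP4, 59.6 and 62.2 CPM on day 5 of SMADi, and 74.2 and 78.7 CPM on day 5 of Endo, against 65.0 and 68.1 CPM at day 0. The log2 fold change of day 5 over day 0 was -0.08 (95% interval -0.29 to 0.14) in BMP4, -0.13 (-0.35 to 0.09) in SMADi and 0.20 (-0.02 to 0.42) in Endo, none of them called. With the letters a and b as a block the Endo value was 0.27 and was called (adjusted p = 0.00266), as it was with limma voom (0.20, adjusted p = 0.0337). In between, WT means were as low as 45.95 CPM on day 2 of BMP4 and 59.4 CPM on day 3 of Endo. The WT level was higher than at day 0 on day 1 of SMADi, with 125 and 128 CPM, and on day 1 of Endo, with 113 and 106 CPM. KO libraries on those days had 49.6 and 47.8 CPM in SMADi and 43.4 and 42.5 CPM in Endo, near their day 0 values of 43.0 and 48.1 CPM.

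PHKG1, which lies beside CHCHD2, was scarcely detected in any line. Its 32 ΔATG libraries held 28 counts in all, the 32 KO libraries 145 and the 32 WT libraries 326. The pooled ratio of WT to ΔATG was 11.7, given without a test. The lowest, median and highest library had 0, 0.00754 and 0.0842 CPM in ΔATG, 0.0170, 0.0533 and 0.389 CPM in KO, and 0, 0.170 and 0.578 CPM in WT. ΔATG lay below WT at 15 of 16 time points and overlapped it at 1, while KO lay below WT at 12, above it at 1 and overlapped it at 3.
PHKG1 was called lower in KO in BMP4 (log2 fold change -1.16 ± 0.44 SE, adjusted p = 0.045) and in Endo (-1.46 ± 0.45, adjusted p = 0.0195). It was not called in SMADi (-0.90 ± 0.48, adjusted p = 0.128) or at day 0 (-1.91 ± 1.03, adjusted p = 0.377). A difference of the KO effect between courses was not detected (adjusted p = 0.827). Both calls rest on few counts. The call in BMP4 was lost with the letters a and b as a block (-1.16, adjusted p = 0.0588). It was also lost without WT libraries a or b or KO libraries b (adjusted p = 0.074, 0.208 and 0.267), and the call in Endo without the a or b libraries of either line (adjusted p between 0.0634 and 0.185). In WT cells PHKG1 on day 5 was not called against day 0, with log2 fold changes of 0.59 in BMP4, -2.37 in SMADi and 0.04 in Endo.

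CEBPZOS was the other gene nearly lost from ΔATG cells. At day 0 ΔATG libraries had 1.91 and 2.41 CPM, KO libraries 62.4 and 63.4 CPM, and WT libraries 59.2 and 52.2 CPM, which puts ΔATG at 3.88% of WT. CEBPZOS gave counts in 29 of the 32 ΔATG libraries, 821 in all, against 46369 in KO and 55047 in WT. The pooled ratio of WT to ΔATG was 67.6, against 13300 for CHCHD2, both given without a test.
In BMP4 the lowest, median and highest library had 0.182, 0.559 and 0.960 CPM in ΔATG, 27.6, 32.2 and 36.3 CPM in KO, and 19.1, 24.3 and 32.6 CPM in WT. In SMADi these were 0, 0.113 and 0.651 CPM in ΔATG, 14.2, 18.1 and 40.1 CPM in KO, and 23.9, 44.1 and 71.2 CPM in WT. In Endo they were 0.0480, 0.168 and 1.28 CPM in ΔATG, 11.9, 16.5 and 19.7 CPM in KO, and 14.5, 16.95 and 22.1 CPM in WT. ΔATG lay below WT without overlap at all 16 time points. KO lay above WT at day 0 and on 4 of 5 days of BMP4, below it on all 5 days of SMADi, and overlapped it on 3 of 5 days of Endo.

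In CPM, the trace of CEBPZOS left in ΔATG cells was highest at day 0. On day 5 ΔATG libraries had 0.252 and 0.182 CPM in BMP4, 0 and 0 CPM in SMADi, and 0.0480 and 0.0552 CPM in Endo. As a share of the WT level ΔATG held 1.10% to 3.70% over the days of BMP4, 0% to 1.06% in SMADi and 0.351% to 4.48% in Endo. The 4.48% of day 1 of Endo lay above the 3.88% of day 0.
WT cells also lowered CEBPZOS over each course. On day 5 WT libraries had 20.3 and 19.1 CPM in BMP4, 26.7 and 23.9 CPM in SMADi, and 14.5 and 14.9 CPM in Endo, against 59.2 and 52.2 CPM at day 0. The log2 fold change of day 5 over day 0 was -1.5 ± 0.17 SE in BMP4 (adjusted p = 9.88e-11), -1.14 ± 0.17 in SMADi (adjusted p = 5.93e-08) and -1.92 ± 0.17 in Endo (adjusted p = 1.62e-14). CEBPZOS and CEBPZ were the 2 members called of 4 in each of these comparisons, where 41.8%, 51.5% and 62.3% of tested genes were called.

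**Figure D2:**
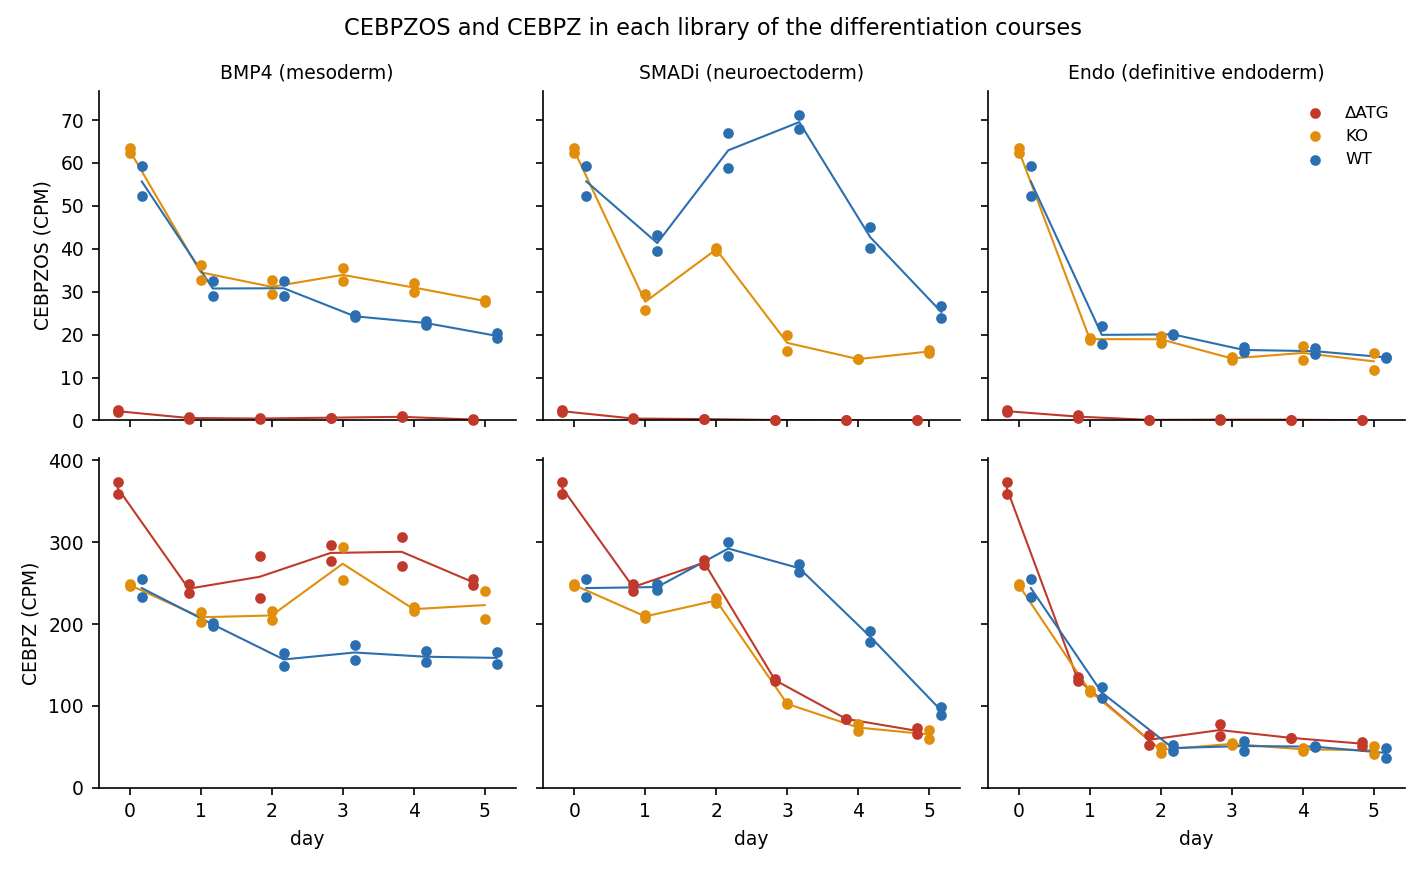
CEBPZOS (top row) and CEBPZ (bottom row) in CPM against day for the 3 courses, with 1 point per library and lines through the means of 2 libraries; day 0 is the same in each column. CEBPZOS stays at or below 2.41 CPM in every ΔATG library, while CEBPZ lies between 51.6 and 373 CPM in the same libraries.

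In KO cells CEBPZOS was kept, and it moved in opposite directions in BMP4 and SMADi. It rose in BMP4 (log2 fold change 0.32 ± 0.07 SE, adjusted p = 0.000515) and fell in SMADi (-1.08 ± 0.07, adjusted p = 2.57e-18). It was not called at day 0, where the difference was 0.18 (95% interval -0.15 to 0.50), or in Endo, where it was -0.10 (-0.25 to 0.06). The KO effect differed between courses (adjusted p = 1.98e-16) and between days of SMADi (adjusted p = 6.46e-07), with -1.94 ± 0.17 on day 3 and -0.65 ± 0.17 on day 5. Of the single days of BMP4, day 5 was the 1 called (0.50 ± 0.17, adjusted p = 0.0259), and a difference between days was not detected there (adjusted p = 0.466). Days 3 and 4 had similar values, 0.48 (adjusted p = 0.0618) and 0.45 (adjusted p = 0.0647). Both were called with no filter, with the letters a and b as a block, with limma voom and with the DESeq2 Wald test. Over all tested genes 0.837%, 6.83%, 7.81%, 12.9% and 19.4% were called on days 1 to 5 of BMP4.

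CEBPZ, on the opposite strand of the same locus, was not lost in ΔATG cells. At day 0 ΔATG libraries had 359 and 373 CPM, KO libraries 247 and 248 CPM, and WT libraries 233 and 255 CPM. In BMP4 the lowest, median and highest library had 232, 263 and 306 CPM in ΔATG, 202, 216 and 294 CPM in KO, and 148, 166 and 202 CPM in WT. ΔATG lay above WT without overlap at day 0, on all 5 days of BMP4 and on all 5 days of Endo.
In SMADi the 3 values were 65.9, 131 and 279 CPM in ΔATG, 59.6, 103 and 232 CPM in KO, and 89.5, 245 and 301 CPM in WT. In Endo they were 51.6, 62.4 and 135 CPM in ΔATG, 41.3, 50.4 and 119 CPM in KO, and 36.8, 50.3 and 123 CPM in WT. ΔATG lay below WT on 4 of 5 days of SMADi and overlapped it on day 1. Over all time points it held between 45.6% and 180% of the WT level.

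In KO cells CEBPZ moved in the same directions as CEBPZOS. It rose in BMP4 (log2 fold change 0.43 ± 0.05 SE, adjusted p = 2.19e-10) and fell in SMADi (-0.77 ± 0.05, adjusted p = 9.09e-20). It was not called at day 0, at 0.02 (95% interval -0.20 to 0.24), or in Endo, at 0.01 (-0.09 to 0.11). The KO effect differed between courses (adjusted p = 7.74e-21), between days of SMADi (adjusted p = 2.34e-10) and between days of BMP4 (adjusted p = 0.0314). In SMADi it was -1.39 ± 0.11 on day 3 and -0.53 ± 0.11 on day 5, and in BMP4 it was 0.06 ± 0.11 on day 1 and 0.73 ± 0.11 on day 3. The difference between days of BMP4 was lost without the a or b libraries of either line (adjusted p between 0.0822 and 0.322). In WT cells the day 5 level lay below the day 0 level in all 3 courses, with -0.62 ± 0.11 in BMP4 (adjusted p = 4.64e-06), -1.37 ± 0.11 in SMADi (adjusted p = 9.35e-16) and -2.52 ± 0.12 in Endo (adjusted p = 2.72e-26).
Stem cell markers also differed between KO and WT in these courses. Over all tested genes 27.7% were called in KO in BMP4, 46.5% in SMADi, 15.6% in Endo and 3.56% at day 0 (8.99% with the letters as a block). The counts of lineage and fibroblast markers in SMADi lie near the share of that course. Of 6 markers 5 rose and 0 fell in KO in BMP4 (median log2 fold change 0.46), 0 rose and 5 fell in SMADi (median -1.66), 1 rose and 0 fell in Endo, and 0 rose and 2 fell at day 0 (1 and 2 with the letters as a block). The 2 that fell at day 0 were NANOG (-1.01 ± 0.30, adjusted p = 0.0412) and PRDM14 (-0.83 ± 0.23, adjusted p = 0.0312). POU5F1 had 20.8 and 19.1 CPM in KO libraries on day 5 of SMADi, against 135 and 137 CPM in WT libraries. Summed, the 6 markers ranged from 3140 to 4960 CPM in KO and from 4170 to 5640 CPM in WT over SMADi. Of 4 lineage markers 3 fell in KO in BMP4, with TBXT at -1.95 ± 0.09 (adjusted p = 2.23e-25). In SMADi 1 rose, PAX6 (2.86 ± 0.29, adjusted p = 1.69e-12), and 1 fell, TBXT (-1.82 ± 0.22, adjusted p = 2.99e-10). Of the 7 fibroblast markers 0 rose and 3 fell in KO in BMP4, and 3 rose and 1 fell in SMADi. The part of these differences in the KO values of CHCHD2, CEBPZOS and CEBPZ was not tested.

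**Figure D3:**
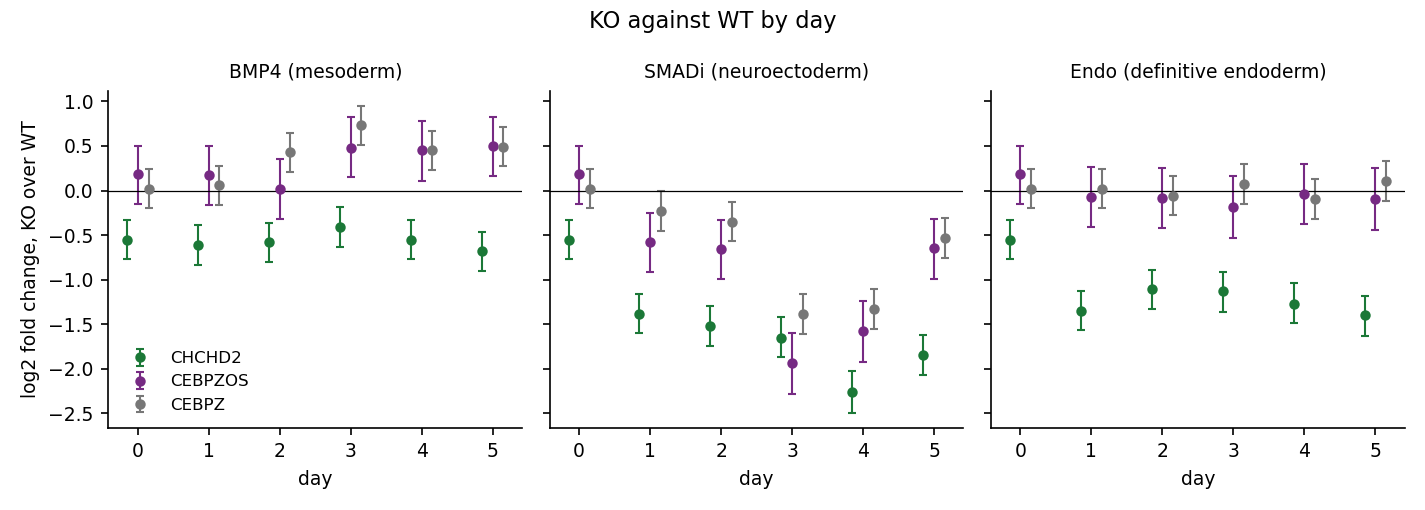
Log2 fold change of KO over WT against day for CHCHD2, CEBPZOS and CEBPZ in the 3 courses, with 2 libraries per group. The 95% intervals rest on a spread estimated over all 48 groups of the arm. Day 0 is the same in each panel. CHCHD2 lies below 0 at every point, between -0.41 and -2.26, while CEBPZOS and CEBPZ lie between 0.02 and 0.73 on the days of BMP4, between -0.23 and -1.94 in SMADi and between -0.18 and 0.11 in Endo.

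Besides PHKG1, 21 other annotated genes lie within 250 kb of CHCHD2, and 9 of them had enough counts to test. In ΔATG against WT 0 of the 9 were called at day 0 and in BMP4, where 3.94% and 15.7% of all tested genes were called. In SMADi 1 rose and 4 fell, and in Endo 1 fell, where 45.8% and 34.8% of all tested genes were called. The log2 fold changes of the 9 ran from -0.48 to 0.47 over the 4 comparisons.
CCT6A, a chaperonin subunit 37.6 kb away, averaged 329 CPM in ΔATG and 384 CPM in WT in SMADi (-0.23 ± 0.03 SE, adjusted p = 3.84e-08). SUMF2, 20.9 kb away, averaged 83.1 CPM in ΔATG and 88.1 CPM in WT there (-0.09 ± 0.04, adjusted p = 0.0323). The mitochondrial ribosomal protein MRPS17 fell by 0.29 ± 0.05 (adjusted p = 3.29e-06) and NIPSNAP2 by 0.21 ± 0.07 (adjusted p = 0.0137), while the zinc finger gene ZNF713 rose by 0.35 ± 0.14 (adjusted p = 0.0308). The gene called in Endo, ENSG00000249773, averaged 1.52 CPM in ΔATG and 2.11 CPM in WT (-0.48 ± 0.19, adjusted p = 0.0454). The calls of SUMF2, NIPSNAP2, ZNF713 and ENSG00000249773 were each lost without the a or b libraries of either line.

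Within 250 kb of CEBPZOS, 9 of 15 other genes could be tested. Of all tested genes 3.94% were called in ΔATG at day 0 (7.16% with the letters as a block). In BMP4, SMADi and Endo 15.7%, 45.8% and 34.8% were called. Of the 9 neighbours 1 rose and 0 fell in ΔATG at day 0 (2 and 0 with the letters as a block). In BMP4 2 rose and 2 fell, in SMADi 5 rose and 2 fell, and in Endo 2 rose and 1 fell. The transcript ENSG00000272054, annotated on the same strand inside an intron of CEBPZOS, was among those that fell. It averaged 0.0122 CPM in ΔATG and 0.113 CPM in WT in BMP4 (log2 fold change -3.65 ± 0.57 SE, adjusted p = 4.43e-06). In SMADi it averaged 0.00329 CPM in ΔATG and 0.145 CPM in WT (adjusted p = 6.21e-09), and in Endo 0 CPM in ΔATG and 0.155 CPM in WT (adjusted p = 2.43e-09).
NDUFAF7 is an assembly factor of respiratory complex I whose annotation overlaps that of CEBPZ by 83 bases at their starts. It had the same directions as CEBPZ on average over each course. On days 1 and 2 of SMADi it lay above WT in ΔATG, where CEBPZ did not. On day 2 ΔATG libraries had 77.0 and 76.4 CPM of NDUFAF7, and WT libraries 71.0 and 73.1 CPM. At day 0 NDUFAF7 had 79.6 and 83.6 CPM in ΔATG libraries, 46.3 and 52.8 CPM in KO libraries, and 57.1 and 51.5 CPM in WT libraries. In ΔATG it rose at day 0 (0.59 ± 0.10, adjusted p = 8.4e-05), in BMP4 (0.83 ± 0.04, adjusted p = 2.32e-21) and in Endo (0.15 ± 0.05, adjusted p = 0.00821), and fell in SMADi (-0.39 ± 0.04, adjusted p = 1.09e-10). The call at day 0 was lost with only the libraries compared (0.60, adjusted p = 0.616). In KO it rose in BMP4 (0.51 ± 0.04, adjusted p = 9.26e-14) and fell in SMADi (-0.70 ± 0.04, adjusted p = 8.27e-20).
EIF2AK2, the RNA-activated kinase PKR, rose in ΔATG in BMP4 (0.31 ± 0.10, adjusted p = 0.0213) and SMADi (0.33 ± 0.10, adjusted p = 0.00378). QPCT, glutaminyl cyclase, fell in BMP4 (-0.67 ± 0.09, adjusted p = 1.21e-07) and rose in Endo (0.29 ± 0.09, adjusted p = 0.00666). STRN, PRKD3, GPATCH11 and HEATR5B were called in SMADi, where they rose by 0.66, 0.48, 0.50 and 0.13 on the log2 scale. In BMP4 the call of ENSG00000272054 was lost without WT libraries a (log2 fold change -2.34). That of EIF2AK2 was lost there without WT libraries b (log2 fold change 0.08) or ΔATG libraries a (log2 fold change 0.12). In SMADi the call of EIF2AK2 was lost without WT libraries b (adjusted p = 0.0736) and that of HEATR5B without WT libraries a or b or ΔATG libraries a. In Endo the call of NDUFAF7 was lost without ΔATG libraries a (log2 fold change 0.07), and that of QPCT without WT libraries a or ΔATG libraries b.

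CHCHD2 has 10 pseudogene copies among the genes with values, whose transcripts match that of CHCHD2 at 84.7% to 97.8% of aligned bases, 3 of them above 95%. None reached 0.5 CPM in a group mean, the highest being 0.396 CPM. Summed over the 10 copies, ΔATG libraries held 207 counts, KO libraries 320 and WT libraries 389, against 131827 CHCHD2 counts in WT. The closest copy, CHCHD2P6, had 71 counts in ΔATG, 117 in KO and 165 in WT.

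Among 14582 genes with a WT mean of at least 2 CPM, CHCHD2 and CEBPZOS were the 2 whose highest ΔATG library lay more than 4-fold below the lowest WT or KO library. For CHCHD2 these libraries had 0.0389 CPM in ΔATG and 16.8 CPM in WT or KO, a gap of 432-fold. For CEBPZOS they had 2.41 CPM in ΔATG and 11.9 CPM in WT or KO, a gap of 4.92-fold. No gene had a gap between 3-fold and 4-fold. CHCHD2 and CEBPZOS were chosen for their low ΔATG levels, so their place in this count restates that choice and is no finding. In the opposite direction 0 of the 14582 genes had their lowest ΔATG library more than 4-fold above the highest WT or KO library. Genes below a WT mean of 2 CPM were left out, so a gene silent in WT and switched on in ΔATG could not be counted. Among the 14582 genes, 5 had their highest KO library more than 4-fold below the lowest WT or ΔATG library.

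Across the 48 group means of log2 CPM, the gene with the pattern most like that of CHCHD2 among 13799 genes was CEBPZOS (Pearson r = 0.952). BTF3 (0.922), ZNF880 (0.857), ZNF486 (0.856) and PCDHA11 (0.727) followed. CHCHD2 and CEBPZOS were both chosen for their low ΔATG levels, so their likeness restates that choice and is no finding. The points share lines and courses, and CHCHD2 varies most between ΔATG and the other lines. BTF3, a subunit of the nascent polypeptide-associated complex, averaged 243 CPM in ΔATG, 421 CPM in KO and 450 CPM in WT. The zinc finger genes ZNF880 and ZNF486 averaged 2.39 and 11.0 CPM in ΔATG, 6.30 and 19.5 CPM in KO, and 9.06 and 21.9 CPM in WT. The genes most like CEBPZOS were CHCHD2, BTF3 (0.918), ZNF486 (0.786), ZNF880 (0.745) and PIWIL2 (0.684). CEBPZ had r = -0.076 with CHCHD2 and 0.134 with CEBPZOS.

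In the overexpression arm, some libraries stood apart or went against their labels. The 4 middle libraries labelled lncPRESS1 and lncSIRP held 1860 to 1910 CPM over the 6 stem cell markers and 5660 to 7570 CPM over the 7 fibroblast markers. The other 20 libraries held 4650 to 6440 CPM and 446 to 937 CPM. SOX2 had 3.28 and 4.07 CPM in the middle libraries labelled lncPRESS1, 5.42 and 5.23 CPM in those labelled lncSIRP, and 256 and 254 CPM in vector. HAND1, a mesoderm factor, had 474 and 449 CPM in the middle libraries labelled lncPRESS1, 333 and 343 CPM in those labelled lncSIRP, and 0 and 0.0157 CPM in vector.
LNCPRESS1 was not called higher in early libraries labelled lncPRESS1, at 32.3 and 53.8 CPM against 29 and 30.2 CPM in vector (0.54 ± 0.21, adjusted p = 0.316). It was higher in early libraries labelled lncSIRP, at 185 and 133 CPM (2.43 ± 0.22, adjusted p = 8.7e-06). At the late stage it had 153 and 151 CPM in libraries labelled lncPRESS1, 154 and 156 CPM in those labelled lncPRESS1DATG, 34.9 and 35.9 CPM in those labelled lncSIRP, and 32.9 and 32.6 CPM in vector.

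No overexpression library lost CHCHD2 or CEBPZOS. The libraries labelled lncPRESS1DATG kept CHCHD2, with 113 and 93.6 CPM at the early stage, 101 and 84.7 CPM at the middle stage and 99.5 and 106 CPM at the late stage. The vector libraries had 96.2 and 98.9, 87.3 and 93.5, and 102 and 102 CPM at the same stages, overlapping them throughout. Averaged over stages the difference was 0.04 on the log2 scale (95% interval -0.09 to 0.17), not called.

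CHCHD2 was lower in the libraries labelled lncPRESS1 and lncSIRP at the middle and late stages. At the middle stage it had 61.2 and 60.1 CPM in libraries labelled lncPRESS1, 60.4 and 61.3 CPM in those labelled lncSIRP, and 87.3 and 93.5 CPM in vector. At the late stage it had 82.2 and 78.8 CPM in libraries labelled lncPRESS1, 78.1 and 78.2 CPM in those labelled lncSIRP, and 102 and 102 CPM in vector. Neither construct overlapped vector at these stages.
Averaged over stages the log2 fold change was -0.33 ± 0.06 SE for lncPRESS1 (adjusted p = 0.000298) and -0.40 ± 0.06 for lncSIRP (adjusted p = 3.82e-05). Without the middle stage it was -0.21 for lncPRESS1, no longer called (adjusted p = 0.0722), and -0.32 for lncSIRP (adjusted p = 0.00592). At the late stage alone it was -0.34 ± 0.11 (adjusted p = 0.0287) for lncPRESS1 and -0.39 ± 0.11 (adjusted p = 0.0172) for lncSIRP. At the early stage it was -0.07 ± 0.10 (adjusted p = 0.857) for lncPRESS1 and -0.25 ± 0.11 (adjusted p = 0.155) for lncSIRP. The early lncSIRP libraries, at 80.4 to 84.2 CPM, also lay below vector, at 96.2 to 98.9 CPM. With only the libraries compared that early lncSIRP value was called (-0.26, adjusted p = 0.00779). The effect differed between stages for lncPRESS1 (adjusted p = 0.0286, passed by 47.7% of genes), and no difference was detected for lncSIRP (adjusted p = 0.187, passed by 47.6%). For lncSIRP the difference between stages was called with only the libraries compared (adjusted p = 0.013). The joint test for lncPRESS1DATG was passed by 14.2% of genes. For lncPRESS1, lncPRESS1DATG and lncSIRP, 0.288%, 23.1% and 8.78% of genes were called at the early stage, 57.3%, 5.49% and 59.3% at the middle stage and 21.5%, 19.8% and 20.6% at the late stage. Each late call was lost without the a or b libraries of either line, with adjusted p between 0.0579 and 0.195 for lncPRESS1 and between 0.0966 and 0.16 for lncSIRP. The difference between stages for lncPRESS1 was lost without vector libraries a or b or lncPRESS1 libraries a (adjusted p = 0.138, 0.187 and 0.225).

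CEBPZOS was lowest in the middle libraries that stood apart and lower than vector at the late stage in all 3 constructs. At the middle stage it had 12.6 and 12.03 CPM in libraries labelled lncPRESS1, 66.1 and 56.7 CPM in those labelled lncPRESS1DATG, 16.9 and 16.1 CPM in those labelled lncSIRP, and 63.0 and 70.7 CPM in vector. At the late stage it had 37.2 and 38.6 CPM in libraries labelled lncPRESS1, 33.2 and 37.7 CPM in those labelled lncPRESS1DATG, 30.9 and 37.0 CPM in those labelled lncSIRP, and 56.3 and 53.1 CPM in vector. At the early stage the libraries labelled lncPRESS1 had 67.8 and 62.9 CPM, on both sides of the vector values of 64.8 and 65.6 CPM.
Without vector libraries a the late call for lncPRESS1 was lost (-0.49, adjusted p = 0.0711). The late log2 fold changes were -0.53 ± 0.10 SE for lncPRESS1 (adjusted p = 0.00236), -0.63 ± 0.10 for lncPRESS1DATG (adjusted p = 0.000384) and -0.69 ± 0.10 for lncSIRP (adjusted p = 0.000533). Averaged over stages they were -0.99 ± 0.06 for lncPRESS1 (adjusted p = 1.22e-09), -0.27 ± 0.06 for lncPRESS1DATG (adjusted p = 0.00258) and -0.96 ± 0.06 for lncSIRP (adjusted p = 1.37e-09). Without the middle stage they were -0.26 for lncPRESS1 (adjusted p = 0.0229), -0.34 for lncPRESS1DATG (adjusted p = 0.00226) and -0.43 for lncSIRP (adjusted p = 0.000737). The effect differed between stages for lncPRESS1 (adjusted p = 1.25e-09), lncPRESS1DATG (adjusted p = 0.0202) and lncSIRP (adjusted p = 4.31e-08). For lncPRESS1DATG this difference was lost without vector libraries a or b or its own libraries a (adjusted p = 0.266, 0.105 and 0.106).

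CEBPZ was called higher at the early stage for lncPRESS1DATG (0.52 ± 0.15 SE, adjusted p = 0.0206) and lncSIRP (0.53 ± 0.15, adjusted p = 0.0387). The early call for lncPRESS1DATG was lost without vector library a or b or its own libraries b, and with only the libraries compared (adjusted p between 0.117 and 0.23), and that for lncSIRP without the a or b libraries of either line (adjusted p between 0.179 and 0.276). At the late stage no construct was called, with 0.41 for lncPRESS1DATG (adjusted p = 0.067). That late value was called with the letters a and b as a block (0.41, adjusted p = 0.0293), with the DESeq2 Wald test (0.41, adjusted p = 0.0377), with no filter (0.43, adjusted p = 0.00215), with only the libraries compared (0.40, adjusted p = 0.00302) and without lncPRESS1DATG library a (0.46, adjusted p = 0.039). The late value for lncSIRP was called with no filter (0.31, adjusted p = 0.04) and with only the libraries compared (0.30, adjusted p = 0.0384). CEBPZ had 192 and 242 CPM in late libraries labelled lncPRESS1, 233 and 250 CPM in those labelled lncPRESS1DATG, 206 and 242 CPM in those labelled lncSIRP, and 175 and 189 CPM in vector. In the middle libraries that stood apart it fell, by 1.02 ± 0.15 for lncPRESS1 (adjusted p = 2.09e-05) and by 0.93 ± 0.15 for lncSIRP (adjusted p = 5.56e-05). Averaged over stages CEBPZ rose for lncPRESS1DATG (0.38 ± 0.09 SE, adjusted p = 0.00385). It was not called for lncPRESS1, at -0.13 (95% interval -0.32 to 0.06), or lncSIRP, at -0.03 (-0.22 to 0.16). Without the middle stage it was 0.46 for lncPRESS1DATG (adjusted p = 0.00451), 0.31 for lncPRESS1 (adjusted p = 0.0591) and 0.41 for lncSIRP, now called higher (adjusted p = 0.00976). The call for lncPRESS1DATG was lost without vector libraries a (0.33, adjusted p = 0.0859) or without its own libraries b (0.23, adjusted p = 0.0534). The effect differed between stages for lncPRESS1 (adjusted p = 5.89e-05) and lncSIRP (adjusted p = 4.78e-05).
PHKG1 stayed between 0.0272 and 0.694 CPM and was not called, at 0.23 ± 0.65 for lncPRESS1, -0.14 ± 0.63 for lncPRESS1DATG and -0.35 ± 0.65 for lncSIRP. Averaged over stages 2 of the 4 members were called for each construct, CHCHD2 and CEBPZOS for lncPRESS1 and lncSIRP and CEBPZOS and CEBPZ for lncPRESS1DATG. Over all tested genes 46% were called for lncPRESS1, 24.2% for lncPRESS1DATG and 50.1% for lncSIRP.

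**Figure D4:**
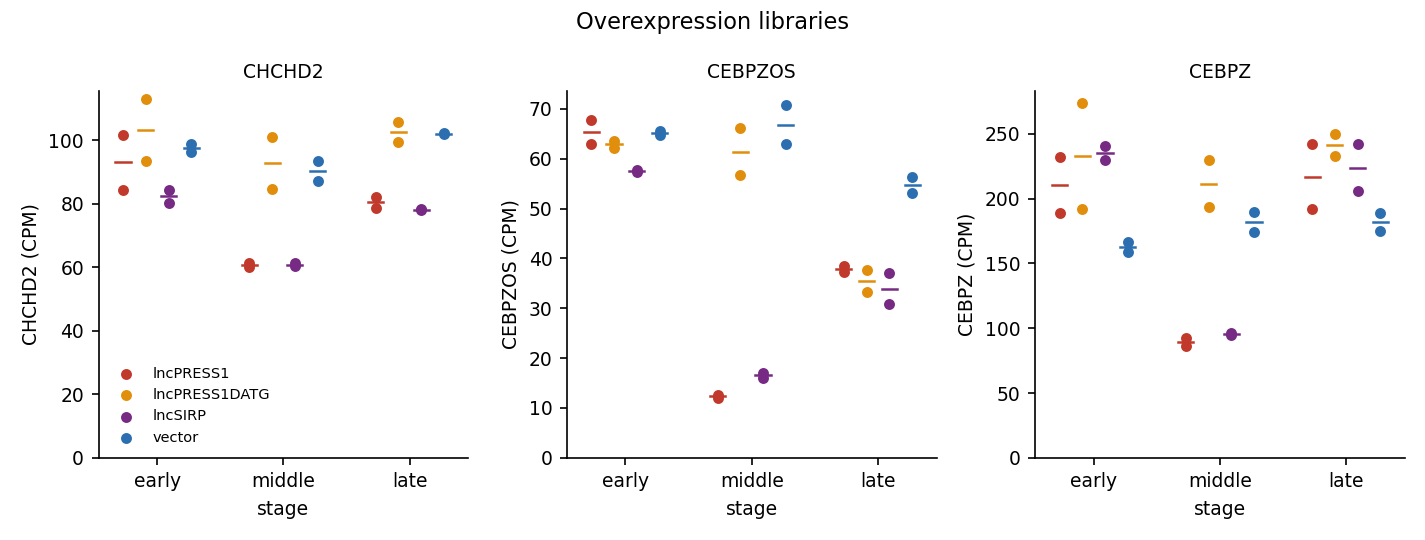
CHCHD2, CEBPZOS and CEBPZ in CPM in the overexpression arm by stage and construct, with 1 point per library and a bar at the mean of 2 libraries. CEBPZOS lies at 12.03 to 16.9 CPM in the 4 middle libraries labelled lncPRESS1 and lncSIRP and at 30.9 to 38.6 CPM in late libraries of all 3 constructs, against 53.1 to 70.7 CPM in vector.

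Of 22 other twin CX9C genes 0 were called in ΔATG at day 0, where 3.94% of all tested genes were called. Their median log2 fold change was -0.01. With the letters a and b as a block 0 rose and 4 fell, where 7.16% of all tested genes were called. In BMP4, where 15.7% of all tested genes were called in ΔATG, 1 rose, the cristae gene CHCHD3 (0.14 ± 0.04 SE, adjusted p = 0.016), and 1 fell, TRIAP1 (-0.20 ± 0.03, adjusted p = 1.17e-05). CHCHD10 had 37.3 and 40.0 CPM in ΔATG libraries at day 0, 40.9 and 45.9 CPM in KO libraries, and 42.5 and 38.7 CPM in WT libraries, so the lines overlapped. In SMADi CHCHD10 fell in ΔATG (-0.77 ± 0.05, adjusted p = 3.33e-21) and in KO (-0.83 ± 0.05, adjusted p = 8.38e-23). Of the 22 genes 2 rose and 13 fell there in ΔATG (median -0.19), and 1 rose and 13 fell in KO (median -0.22), against a median of -0.01 over all tested genes in each. In SMADi 45.8% of all tested genes were called in ΔATG and 46.5% in KO. COX17, the copper chaperone of cytochrome oxidase, fell in ΔATG (-0.49 ± 0.06, adjusted p = 1.2e-10) and in KO (-0.44 ± 0.06, adjusted p = 1.78e-09). The 6 stem cell markers also differed there in ΔATG, where 0 rose and 5 fell (median -1.45), and POU5F1 had 19.8 and 20.8 CPM in ΔATG libraries on day 5, against 135 and 137 CPM in WT libraries. The 7 fibroblast markers had 3 rises and 0 falls and the 4 lineage markers 1 rise and 1 fall in ΔATG there. Their part in the lower values of the gene lists was not tested.

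In SMADi 45.8% of all tested genes were called in ΔATG and 46.5% in KO, the background of the counts for that course. At day 0 the background in ΔATG was 3.94% (7.16% with the letters as a block). Of 14 cristae genes 0 were called in ΔATG at day 0 (1 rose and 0 fell with the letters as a block), while 1 rose and 9 fell in SMADi in ΔATG and in KO. MTX1, a metaxin of the outer membrane, was at -0.48 ± 0.05 in ΔATG (adjusted p = 1.52e-12) and -0.46 ± 0.05 in KO (adjusted p = 4.47e-12). Of 28 genes of cytochrome oxidase subunits and assembly 1 rose in ΔATG at day 0, COX7A1, a subunit of heart and muscle (2.07 ± 0.56, adjusted p = 0.0217), and with the letters as a block 1 rose and 2 fell. In SMADi 1 rose and 18 fell in ΔATG and 1 rose and 20 fell in KO, with medians of -0.29 in each. COX4I2, on which nuclear CHCHD2 acts, had 0.241 and 0.383 CPM in ΔATG libraries at day 0, 0.268 and 0.453 CPM in KO libraries and 0.119 and 0.562 CPM in WT libraries, which overlapped. It fell in SMADi in ΔATG (-1.54 ± 0.45, adjusted p = 0.00411) and KO (-1.05 ± 0.42, adjusted p = 0.0354).
Among 9 partners and effectors of CHCHD2, 1 rose and 1 fell in ΔATG at day 0, where 3.94% of all tested genes were called. With the letters as a block 1 rose and 2 fell, where 7.16% were called. BAX, which opens the outer mitochondrial membrane in apoptosis, fell (-0.60 ± 0.10, adjusted p = 0.000121), and BCL2L1, which restrains it, rose (0.27 ± 0.07, adjusted p = 0.0111). BCL2L1 also rose in KO at day 0 (0.31 ± 0.07, adjusted p = 0.00283). SMAD4 rose in SMADi in ΔATG (0.33 ± 0.07, adjusted p = 4.47e-05) and in KO (0.30 ± 0.07, adjusted p = 0.000192). Of 10 mitochondrial chaperones and proteases 1 fell in ΔATG at day 0, HSPE1, the partner of HSP60 (-0.36 ± 0.10, adjusted p = 0.0169), and with the letters as a block 0 rose and 2 fell. In SMADi 0 rose and 7 fell in ΔATG, and 0 rose and 8 fell in KO.

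At day 0 3.94% of all tested genes were called in ΔATG (7.16% with the letters as a block) and 3.56% in KO. Of 22 glycogen genes, the pathway of PHKG1, 0 were called in ΔATG (0 rose and 1 fell with the letters as a block) and 2 fell in KO at day 0. In SMADi 4 rose and 15 fell in ΔATG and in KO, with a median of -0.21 in each, where 45.8% and 46.5% of all tested genes were called. Of the 6 stem cell markers 0 rose and 5 fell there in each line (median -1.45 in ΔATG and -1.66 in KO), and their part was not tested. PYGM, muscle glycogen phosphorylase, fell there in ΔATG (-1.23 ± 0.08 SE, adjusted p = 1.92e-18) and KO (-1.33 ± 0.09, adjusted p = 9.79e-20). In BMP4 it rose in ΔATG (0.68 ± 0.08, adjusted p = 7.53e-09) and KO (0.84 ± 0.08, adjusted p = 7.27e-12).
Of all tested genes 3.94% were called in ΔATG at day 0 and 3.56% in KO. Of 23 ribosome assembly genes, the pathway of CEBPZ, 1 fell in ΔATG at day 0, NOC2L (-0.22 ± 0.06, adjusted p = 0.0352), and 7 fell in KO, with BOP1 at -0.53 ± 0.08 (adjusted p = 2.88e-05). With the letters as a block 3 fell in ΔATG and 15 in KO at day 0, where 7.16% and 8.99% of all tested genes were called. In BMP4 4 rose in ΔATG and 7 in KO, and 0 fell in either, where 15.7% and 27.7% of all tested genes were called. In SMADi 3 rose and 11 fell in ΔATG, and 1 rose and 14 fell in KO, where 45.8% and 46.5% of all tested genes were called. In the overexpression arm 11 of 23 rose for lncPRESS1 (median 0.24), 9 for lncPRESS1DATG (median 0.10) and 17 for lncSIRP (median 0.35), and 0 fell, where 46%, 24.2% and 50.1% of all tested genes were called. These averages over stages include the 4 middle libraries labelled lncPRESS1 and lncSIRP that stood apart. PPAN, a factor of the large subunit, rose by 0.62 ± 0.11 for lncPRESS1 (adjusted p = 0.000161) and by 0.76 ± 0.11 for lncSIRP (adjusted p = 1.62e-05).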

How the data were processed

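Polyadenylated RNA was sequenced from 96 differentiation and 24 overexpression libraries of H1 cells. The authors deposited 1 table of length-scaled estimated counts per gene on GRCh38, per the submitters' processing notes and the file headers. The sources used here do not give the quantifier or annotation. Estimated counts were rounded to whole numbers. Names and positions came from GENCODE 29, which held 58279 of 62703 gene identifiers. Each arm was fitted apart with all its groups in edgeR 4.0.16 (R 4.3.3): filterByExpr, TMM, common and trended dispersion, quasi-likelihood F test, Benjamini-Hochberg adjustment over 25821 or 23300 genes, calls at adjusted p under 0.05. Residual degrees of freedom were 48 and 12. Levels are CPM with TMM. The fit was tested on simulated data. Alternatives were DESeq2 1.42.0 (size factors and Wald test), limma 3.58.1 voom, no filter, only the libraries compared, the letters a and b as a block, and left-out replicates; leaving out stages was chosen after seeing the data. At day 0 libraries of the same letter deviated together in 3 of 3 pairs of lines (correlations 0.166 to 0.352); that pairing comes from the data and not from the labels. The members and gene lists were chosen with earlier results of these data known. Genes named are the members, neighbours within 250 kb called in ΔATG, the 5 genes most like CHCHD2 or CEBPZOS, genes with a ΔATG gap of over 4-fold, and called list members with the largest changes.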

Additional observations from a re-analysis of the deposited data

Results flagged for a closer look

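The effect of KO on 3 genes differed between the BMP4, SMADi and Endo courses by joint tests of the differences themselves: CHCHD2 (adjusted p = 9.7e-18), CEBPZOS (adjusted p = 1.98e-16) and CEBPZ (adjusted p = 7.74e-21), by edgeR's quasi-likelihood test as elsewhere. CHCHD2 was lower in KO in all 3 courses, while CEBPZOS and CEBPZ were higher in BMP4 and lower in SMADi. Stem cell markers differed between the same lines and courses, and their part was not tested.

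Within SMADi the KO effect differed between days for CHCHD2 (adjusted p = 9.49e-05), CEBPZOS (adjusted p = 6.46e-07) and CEBPZ (adjusted p = 2.34e-10). Within BMP4 it differed between days for CEBPZ (adjusted p = 0.0314), a call that was lost without the a or b libraries of either line.

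In the overexpression arm the difference from vector changed between stages for CHCHD2 with lncPRESS1 (adjusted p = 0.0286), for CEBPZOS with lncPRESS1 (adjusted p = 1.25e-09), lncPRESS1DATG (adjusted p = 0.0202) and lncSIRP (adjusted p = 4.31e-08), and for CEBPZ with lncPRESS1 (adjusted p = 5.89e-05) and lncSIRP (adjusted p = 4.78e-05). The 4 middle libraries labelled lncPRESS1 and lncSIRP held 1860 to 1910 CPM of stem cell markers, against 4650 to 6440 CPM in the other 20 libraries.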

How the results depend on the processing

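Of 422 recomputed values of the 4 members in comparisons fixed for testing, 402 kept their direction and their side of the threshold. CHCHD2 in KO at day 0 was -0.52 and lost its call with only the libraries compared. PHKG1 in SMADi on day 5 against day 0 of WT was -2.74 and called with limma voom. CHCHD2 on day 5 against day 0 of Endo in WT was 0.20 and called with limma voom. Without the middle stage, CHCHD2 for lncPRESS1 was -0.21, no longer called, and CEBPZ for lncSIRP was 0.41, the opposite direction. With the late stage only, CEBPZ for lncPRESS1DATG was 0.41, no longer called. The cause was not tested.

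Leaving out the a or b libraries of 1 line, PHKG1 in KO ranged from -1.99 to -0.90 in BMP4, -1.60 to -0.08 in SMADi and -1.76 to -1.19 in Endo, -6.53 to -1.35 on day 5 against day 0 of SMADi in WT, and CEBPZ for lncPRESS1DATG from 0.23 to 0.52.

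Genes called at day 0 depended most on the setting. In KO 920 genes were called, 1420 with the DESeq2 Wald test, 7 with only the libraries compared and 175 to 2772 without 1 library. In ΔATG 1018 were called, 1622 with the DESeq2 Wald test, 3 with only the libraries compared and 107 to 1861 without 1 library. In Endo 4025 were called in KO, and 2445 to 2945 without the a or b libraries of 1 line. For lncPRESS1DATG 5639 were called, and 2985 to 6280 without those of 1 line. Without the middle stage 3328 of 10721 calls were made for lncPRESS1 and 6004 of 11665 for lncSIRP, and with the late stage only 4998 and 4811.

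Outside day 0 libraries share only a letter: same-letter correlations of deviations passed 0.1 in 11 of 15 pairs of groups in BMP4 and in 0 of 15 in SMADi and in Endo, and in 0 of 6 at each overexpression stage. With the letter as a block, 2322 genes were called in KO and 1850 in ΔATG at day 0, PHKG1 in KO in BMP4 was -1.16 (adjusted p = 0.0588), and CHCHD2 on day 5 against day 0 of Endo in WT was 0.27 and called.

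Only 2 libraries per group were available, and PHKG1 had between 28 and 326 counts over the 32 libraries of a line. Estimated counts can share reads between overlapping genes.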
